A study of Homo sapiens with 9 samples.

Results

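A set of 1001 intervals at which RNA polymerase II was detected in control HEK293T cells and again after knockdown of DHX9, but not after knockdown of U2AF1, is described here. They were chosen from the 2757 peaks of the control list by an overlap of 1 bp or more with the DHX9 knockdown list and of none with the U2AF1 knockdown list. They made up 36.3% of all control peaks (95% Wilson interval 34.5 to 38.1). Of the other control peaks, 840 were found in both knockdown lists, 802 in neither and 114 in the U2AF1 knockdown list alone. Presence in the 3 lists chose the members, so that presence is a description and not a finding.

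Chromatin immunoprecipitation with an antibody to POLR2A, the catalytic subunit of RNA polymerase II, was followed by sequencing (ChIP-seq). HEK293T is a human embryonic kidney line, labelled wildtype and carrying a control shRNA in the control condition, and labelled as U2AF1 knockdown or DHX9 knockdown in the others. Each condition had 2 ChIP replicates and 1 input, but a single list of peaks, with 2757 peaks in the control, 1730 under U2AF1 knockdown and 4443 under DHX9 knockdown. How the knockdowns were made, for how long, and how much protein was left are not given in the sources used here, and all conditions share the one cell line.

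RNA polymerase II usually halts shortly after it starts to transcribe, and in ChIP-seq this paused enzyme gives a sharp peak just downstream of a gene's start. Behind the polymerase the new RNA can pair with its template to form an R-loop, which is favoured where the RNA is rich in G, that is, where the coding strand has more G than C. U2AF1 is the small subunit of the factor that recognises the end of an intron, DHX9 is a helicase that can unwind hybrids of RNA and DNA, and the title of the series places U2AF1 at promoter R-loops.

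No list has a replicate error, and the sequencing depth of the libraries is unknown from the lists. The U2AF1 knockdown list was the shortest and the DHX9 knockdown list the longest, so list length and knockdown cannot be told apart at any single member. With the 3 lists held to 1730 peaks each, 346 of the 1001 were still members, 20.0% of the control peaks kept. With a −log10 q of at least 5 asked of the control and DHX9 knockdown peaks, 557 were, 28.3% of the control peaks kept. Both settings also remove control peaks. Of the kept control peaks also found under DHX9 knockdown, 37.7% and 44.6% were missing under U2AF1 knockdown, against 54.4% without these limits. Control peaks are named with an ending that may mark replicate 1, so whether that list rests on both libraries is not known. A peak missing from a list is a peak that was not called, and not a measured loss of polymerase. Of the genes used to check the line, VIM alone of 11 had a control peak at a start, and 0 of 13 genes of blood, liver, pancreas, muscle and kidney tubule had one in any list. U2AF1 itself had no control peak within 1000 bp of a start, and the starts of DHX9 and POLR2A had peaks in both knockdown lists, so none of these was a member.

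Sequence is shown first for 4 of the members that stood highest by significance in both lists, among those at a protein-coding start whose stretch upstream could be shown. These stretches lie upstream of the canonical transcript start and outside every annotated exon, on GRCh38, 5′ to 3′ along the gene, and the capitals mark matches to 3 promoter motifs: the GC box (GGGCGG), the CCAAT box (CCAAT) and the TATA motif (TATAAA), each on either strand. They are given to show the sequence next to the strongest members at coding starts. RPS4X, ALG6 and ENPP1 hold GC boxes and no TATAAA here, and H2AC18 holds TATAAA from -31 bp and 2 CCAAT boxes, from -97 and -68 bp. ENPP1 holds 6 GC boxes, some overlapping, whose first bases lie between -108 and -46 bp.
RPS4X, minus strand, chrX:72277249-72277398: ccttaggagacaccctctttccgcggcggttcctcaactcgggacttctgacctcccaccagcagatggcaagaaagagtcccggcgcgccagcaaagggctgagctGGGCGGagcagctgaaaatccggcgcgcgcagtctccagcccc
ALG6, plus strand, chr1:63367425-63367574: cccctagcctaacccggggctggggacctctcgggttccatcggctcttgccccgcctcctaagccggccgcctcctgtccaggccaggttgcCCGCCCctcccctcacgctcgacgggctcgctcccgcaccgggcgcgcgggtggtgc
ENPP1, plus strand, chr6:131807866-131808015: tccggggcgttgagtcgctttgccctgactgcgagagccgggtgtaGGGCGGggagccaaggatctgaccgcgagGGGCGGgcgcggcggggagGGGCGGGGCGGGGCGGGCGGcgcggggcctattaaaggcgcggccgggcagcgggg
H2AC18, minus strand, chr1:149842751-149842874: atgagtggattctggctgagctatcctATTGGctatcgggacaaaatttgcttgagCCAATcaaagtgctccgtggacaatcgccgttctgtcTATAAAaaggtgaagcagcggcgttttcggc

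Some members of high control fold enrichment had no gene. The one on chromosome 11 was a repeat of C and T with scattered G, and 120 bp around its middle are shown on the plus strand, in lower case throughout, because this sequence sets it apart from every promoter above.
Chromosome 11, plus strand, chr11:11246663-11246782: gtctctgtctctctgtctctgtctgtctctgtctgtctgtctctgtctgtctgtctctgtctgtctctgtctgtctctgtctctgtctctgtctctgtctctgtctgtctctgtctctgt

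Fold enrichment below is the authors' ratio for a peak, and −log10 q is their measure of its significance. Both are compared within a list, since the scale of each list depends on its own depth and background. Among the members, fold enrichment in the control list had a median of 4.12, with quartiles of 3.54 and 4.82 and a range from 1.48 to 52.0. For the overlapping peaks of the DHX9 knockdown list the median was 5.79, with quartiles of 4.81 and 6.75 and a range from 1.73 to 18.0. The members lay near the middle of both lists, whose medians over all peaks were 4.13 and 5.27. Peaks found in both knockdown lists had a median control fold enrichment of 4.95, and those found in neither had 3.67.

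RPS4X, a protein of the small ribosomal subunit, had its peak at chromosome X, 72276974 to 72277358, with the summit 71 bp downstream of the start in an intron. Fold enrichment there was 8.13 in the control list, rank 161, and 9.09 in the DHX9 knockdown list, rank 275. No U2AF1 knockdown peak lay within 437 kb of it. RPS4X thus stood high in both lists.

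ALG6, a glucosyltransferase of the endoplasmic reticulum that builds the sugar precursor of N-glycans, had a peak at chromosome 1, 63367567 to 63367929, in an intron. Fold enrichment was 6.33 in the control and 8.49 in the DHX9 knockdown list. ENPP1, a cell surface enzyme that makes pyrophosphate, had a peak over an exon at chromosome 6, 131807771 to 131808382, with 7.21 in the control list and 9.41 under DHX9 knockdown. The nearest U2AF1 knockdown peaks were 1598 kb from ALG6 and 1006 kb from ENPP1, so both stood alone. H2AC18, a replication-dependent histone H2A gene, differed in this respect. Its peak, at chromosome 1, 149841666 to 149842846, had a fold enrichment of 5.10 in the control list and 10.2 in the DHX9 knockdown list, and a U2AF1 knockdown peak lay 0.383 kb away. Histone genes of this cluster have near-identical copies, so the placement of reads among them is uncertain.

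Of the remaining members of highest standing, 1 lay at TTI2, whose product helps fold large kinases, and at the small nucleolar RNA gene SNORD13. Fold enrichment was 10.8 in the control, rank 87, and 16.8 in the DHX9 knockdown list, rank 70, with the summit 590 bp upstream of the TTI2 start (-590 bp). Another lay upstream of the long noncoding RNA gene ENSG00000290832, at chromosome 7, 73005615 to 73006349, close to PMS2P7, a pseudogene related to the mismatch repair gene PMS2 (5.27 and 7.95). A peak in an intron of the noncoding gene LINC02689, at chromosome 11, 1351586 to 1351915, had 9.55 in the control list and 12 under DHX9 knockdown. IER5, an immediate early gene, was among the 5 most significant members in the DHX9 knockdown list. Its peak at chromosome 1, 181088531 to 181088953, had a fold enrichment of 6.16 in the control list and 13.6 in the DHX9 knockdown list, ranks 324 and 95.

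The members were peaks of middling strength. When control peaks were split into deciles of −log10 q, members made up 28.6% of the weakest decile (95% Wilson interval 23.6 to 34.2) and 48.6% of the fifth (42.7 to 54.4). Their share was 42.4% in decile 8, 22.1% in decile 9 and 7.64% in decile 10 (5.05 to 11.4, 21 of 275 peaks). By control fold enrichment the share was likewise 12% in decile 1, 47.3% in decile 4 and 16.0% in decile 10. The strongest control peaks were mostly in all lists, and the weakest mostly in neither knockdown list.

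**Figure D1:**
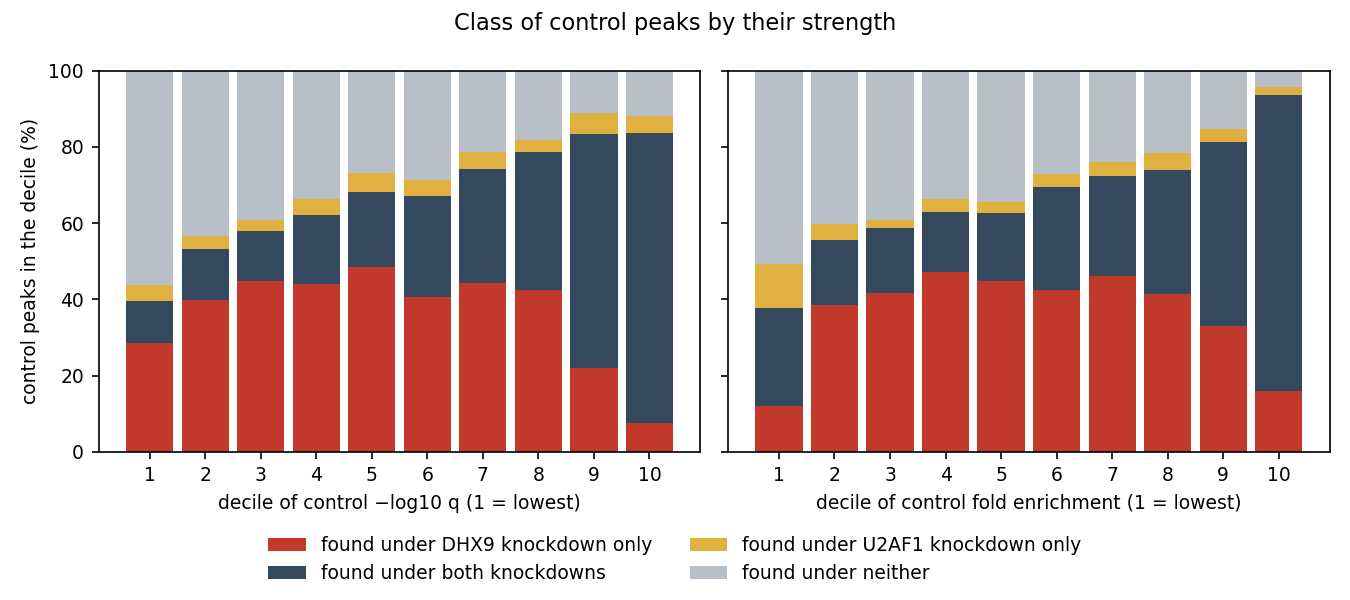
Share of control peaks in each class (%, stacked bars) by decile of control −log10 q (left) and of control fold enrichment (right), decile 1 being the weakest peaks. The red bars, peaks found under DHX9 knockdown only, fall to 7.64% in decile 10 of −log10 q and to 16.0% in decile 10 of fold enrichment.

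Control peaks not found in the U2AF1 knockdown list numbered 1803, or 65.4% of all control peaks, and the members are those of them that the DHX9 knockdown list holds. Of the 1841 control peaks that the DHX9 knockdown list holds, 54.4% (52.1 to 56.6) were missing from the U2AF1 knockdown list. That share ran from 72.5% in decile 1 of control −log10 q to 77.5% in decile 3, 53.9% in decile 8, 26.5% in decile 9 and 9.13% in decile 10. Among the 916 control peaks absent from the DHX9 knockdown list, 802 were missing from the U2AF1 knockdown list too, 87.6% (85.3 to 89.5). Among the control peaks that the DHX9 knockdown list holds, the order by control fold enrichment was different at the bottom. Of these peaks, 31.7% were missing from the U2AF1 knockdown list in decile 1 and between 69.3% and 75.1% in deciles 2 to 5. The share was 40.6% in decile 9 and 17.1% in decile 10. Among control peaks found under DHX9 knockdown, absence from the U2AF1 knockdown list was thus least frequent in the strongest decile by both measures. In the weakest decile it was low by fold enrichment but not by −log10 q. Over all control peaks of fold decile 1 such absence was not low, since 50.7% were found in neither knockdown list.

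Significance gave the same order. The median −log10 q of members was 7.0 in the control list and 7.29 in the DHX9 knockdown list, against 12.8 and 12 for peaks found in both knockdown lists. A −log10 q of at least 5 in both the control and the DHX9 knockdown list was reached by 557 members, 55.6%, and by 691 of the 840 peaks found in both knockdown lists, 82.3%. The values that the U2AF1 knockdown list gives to peaks found in both lists show how near they came to its lower end, which was 1.30. Their median −log10 q there was 5.01 where the control peak fell in deciles 1 to 5 (n = 207) and 9.39 in deciles 6 to 10 (n = 633). Across members, Spearman's rho between control and DHX9 knockdown fold enrichment was 0.26, and across the 840 peaks found in both lists it was 0.66. Peaks of 1 list share a library and are not replicates, and the members cover a narrower range of values.

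**Figure D2:**
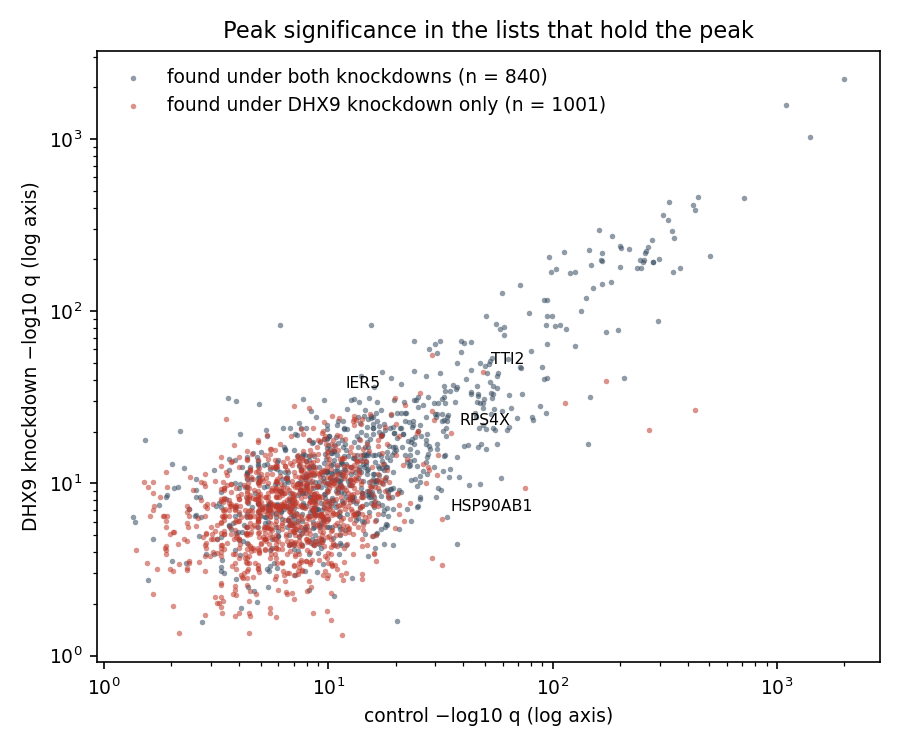
Each point is a control peak, with its −log10 q in the control list (x, log axis) and that of its overlapping peak in the DHX9 knockdown list (y, log axis); red points are the 1001 members and dark points the 840 peaks found in both knockdown lists. The members crowd at the lower left around medians of 7.0 and 7.29, with TTI2 among the few that reach higher.

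Few members lay close to a U2AF1 knockdown peak. How near a member's site came to being called under U2AF1 knockdown cannot be seen from a list of called peaks. The nearest U2AF1 knockdown peak on the same sequence was at a median of 360 kb, with quartiles of 102 and 991 kb (n = 992). It lay within 250 bp of 5 members, within 1000 bp of 16 and within 5000 bp of 24. The member closest to one was at POLH, a translesion DNA polymerase, 76 bp away, with a control fold enrichment of 4.37, and the next was at SLC12A2, a sodium, potassium and chloride cotransporter, 126 bp away, with 5.83. On the other side of the threshold, TOLLIP, an adaptor of innate immune signalling, shared 21 bp with a U2AF1 knockdown peak (control fold enrichment 2.88), and FAM13B shared 33 bp (3.00). At the DHX9 threshold the members with the smallest overlap were H2BC4, a histone gene, with 15 bp, and GSTP1, a glutathione transferase, with 21 bp. A control peak at MRPL36 that touched a DHX9 knockdown peak with 0 bp between them, and one at BCAR3 15 bp away, fell outside.

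A gene could be assigned to 972 members, and these were 965 different genes, 7 of them with 2 members. In 37 cases the gene or the 1000 bp around it held a U2AF1 knockdown peak elsewhere, 21 of them over 1000 bp from the member. For most members the U2AF1 knockdown list therefore had no peak anywhere along the gene.

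The members lay at gene starts, which the rule did not use. Of the 988 members on annotated sequences, 962 had their summit within 1000 bp of an annotated transcript start, 97.4% (96.2 to 98.2), and 924 within that distance of a protein-coding start, 93.5%. Only 10 lay in gene bodies and 16 outside genes. A start was within 1000 bp for 93.7% of peaks found in both lists and 67.7% of those found in neither. In control fold deciles 3 to 8 it was so for 98.8% of members and 97.6% of peaks found in both lists. That difference, 1.18 points (-0.412 to 3.38), has an interval that includes 0. At protein-coding starts, 924 of 2146 control peaks were members, 43.1%, against the 36.3% over all control peaks. The summit position relative to the canonical start was known for 879 members. Its median was 55 bp downstream, with quartiles of -35.5 and 88 bp, where paused polymerase is usually seen. It lay 0 to 150 bp downstream in 64.5%, farther downstream in 7.62% and upstream in 27.9%. In the DHX9 knockdown list the summits of the same starts lay at a median of -1 bp from the control summit, and 54.2% were within 50 bp of it, against 61.0% for peaks found in both lists.

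**Figure D3:**
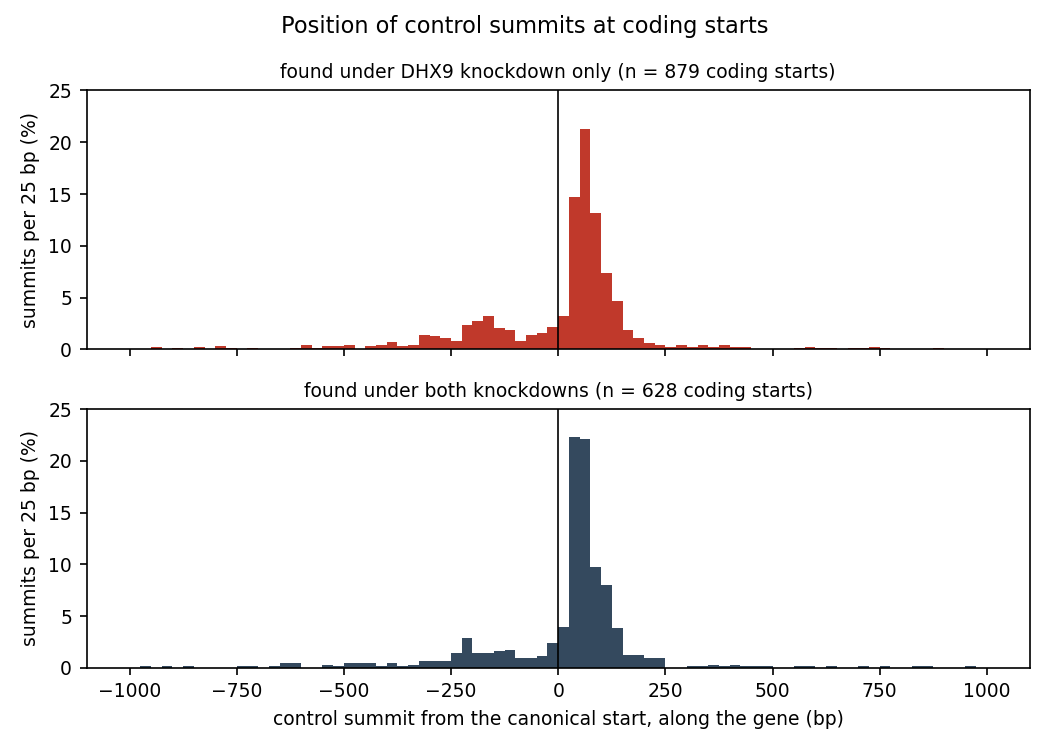
Distance of the control summit from the canonical protein-coding start in bp along the gene (x, negative is upstream), as a percentage of summits per 25 bp (bars), for 879 members (top) and 628 peaks found in both knockdown lists (bottom). Both have their main peak just downstream of the start, with medians of 55 and 50.5 bp, and a smaller group upstream.

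Members were then compared with the 840 peaks found in both knockdown lists, for features of position and sequence that the rule did not use. Differences between shares are in percentage points with 95% Newcombe intervals, which cover counting error alone; 18 features were set against 2 classes, 36 differences in all, with no adjustment. Members were more often at protein-coding starts, 93.5% against 82.0%, a difference of 11.5 points (8.47 to 14.6). They were more often CpG-rich (GC content of at least 50% and an observed to expected CpG ratio of at least 0.6 in 200 bp), 94.0% against 87.1%, a difference of 6.86 (4.20 to 9.63). A TATA motif within 200 bp around the summit was less frequent, 2.4% against 7.86%, a difference of -5.46 (-7.62 to -3.46). Canonical transcripts of a single exon were also less frequent, 2.39% against 6.05%, a difference of -3.66 (-5.96 to -1.63).

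How far these differences held depended on how peak strength was limited. With a control −log10 q of at least 5 they were about as large, at 11.5 points (8.16 to 15.0) for protein-coding starts, 7.63 (4.59 to 10.7) for CpG-rich sequence, -5.21 (-7.71 to -2.77) for the TATA motif and -4.16 (-6.68 to -1.86) for single-exon transcripts. Within control fold deciles 3 to 8, which leave out the weakest and the strongest peaks by fold enrichment, the difference in protein-coding starts was -0.411 points (-2.99 to 2.62), in CpG-rich sequence -1.60 (-3.71 to 0.893), in the TATA motif -1.68 (-4.08 to 0.117) and in single-exon transcripts -1.44 (-4.25 to 0.749). Each interval within those deciles includes 0. Peaks found in both lists also include most of those at small nuclear RNA and histone genes. Without peaks at small nuclear RNA, small nucleolar RNA and histone genes, a setting chosen after seeing the data, the difference was 6.25 points (3.44 to 9.21) in protein-coding starts, 3.34 (0.883 to 5.93) in CpG-rich sequence, -5.03 (-7.22 to -3.06) in the TATA motif and -1.44 (-3.29 to 0.141) in single-exon transcripts. The first pair were smaller than over all peaks but still excluded 0, and the last included it.

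G over C skew, the sequence feature linked to R-loops, was measured as (G - C)/(G + C) on the coding strand over 500 bp downstream of the canonical start. Its median was 0.0693 in members, 0.0606 in peaks found in both lists and 0.0626 in peaks found in neither. A skew of at least 0.1 was reached at 39.9% of members and 36.0% of peaks found in both lists, a difference of 3.94 points (-1.04 to 8.85), and against 36.8% of peaks found in neither the difference was 3.09 (-2.44 to 8.49). In control fold deciles 3 to 8 these were 3.92 (-2.55 to 10.2) and 6.07 (-0.172 to 12.1). All 4 intervals include 0, and their upper ends run from 8.49 to 12.1 points. Pairs of divergent coding starts made up 10.2% of members at coding starts against 8.61%, a difference of 1.56 (-1.42 to 4.41), which includes 0 as well. The median gene length was 37077 bp in members and 30960 bp in peaks found in both lists, and in control fold deciles 3 to 8 it was 37916 and 34532 bp. The first intron had a median of 4971 against 3944 bp and the first exon of 193 against 212 bp. In peaks found in neither list the medians were 36853 bp for gene length, 4524 bp for the first intron and 183 bp for the first exon. No interval was computed for these lengths.

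Against the 802 control peaks found in neither knockdown list the members differed more. Protein-coding starts were 93.5% of members and 63.7% of those peaks, a difference of 29.9 points (26.1 to 33.6), and CpG-rich sequence 94.0% and 63.8%, a difference of 30.2 (26.5 to 33.8). Peaks outside genes were 1.62% of members and 29.8% of the others. These differences remained past their counting error within control fold deciles 3 to 8, at 14.1 (10.3 to 18.1) for protein-coding starts and 14.9 (11.2 to 18.7) for CpG-rich sequence. At canonical coding starts the summit lay upstream in 27.9% of members and 27.2% of the others, a difference of 0.680 (-4.45 to 5.62).

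**Figure D4:**
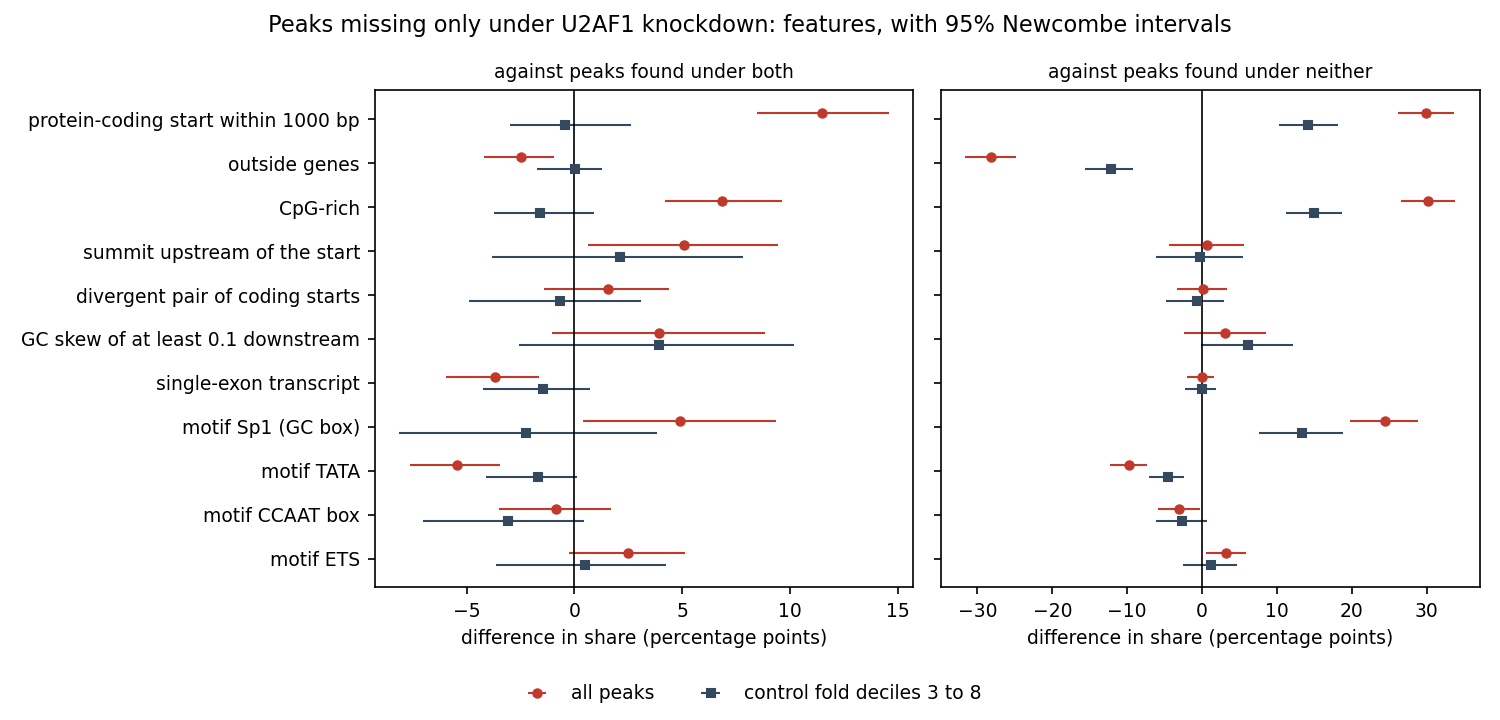
Difference in the share of peaks with each feature (x, percentage points, members minus the other class; bars are 95% Newcombe intervals), against peaks found in both knockdown lists (left) and in neither (right), over all peaks (red circles) and in control fold deciles 3 to 8 (dark squares). On the left the dark squares all have intervals that include 0; on the right protein-coding starts stay at 14.1 and CpG-rich sequence at 14.9.

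Promoter motifs were searched as exact letters on both strands, and no spelled motif contains another, although matches can share bases. In 200 bp around the control summit, GGGCGG was found in 61.4% of members, 56.5% of peaks found in both lists and 52.0% of all control peaks. The ETS motif CCGGAAG was found in 10.7% of members and 8.74% of all control peaks, CCAAT in 8.19% and 9.50%, the YY1 motif AAGATGGC in 4.60% and 3.52%, the E-box CACGTG in 4.20% and 3.84%, and TATAAA in 2.4% and 7.29%. The palindrome CTCGCGAG was found in 2.10% and 1.74%, the NRF1 motif GCATGCGC in 1.80% and 1.92%, and the CRE TGACGTCA in 1.70% and 1.27%. In this window the GC box was thus the common motif. The excess of GGGCGG over peaks found in both lists, 4.89 points (0.384 to 9.38), was -2.22 (-8.13 to 3.85) in control fold deciles 3 to 8, 61.3% against 63.6%. It was 4.85 (-0.240 to 9.90) at a control −log10 q of at least 5, and 2.02 (-2.59 to 6.65) without the small nuclear RNA, small nucleolar RNA and histone gene peaks. In 400 bp around the summit, GGGCGG was held by 87.5% of members and 79.9% of peaks found in both lists, a difference of 7.63 points (4.25 to 11.1). CCAAT was held by 28.7% and 33.3%, a difference of -4.66 (-8.90 to -0.427). For CCGGAAG the shares were 20.3% and 14.9%, a difference of 5.40 (1.90 to 8.84). The 400 bp window was not combined with a limit on peak strength.

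RefSeq promoters on GRCh38.p14, from 250 bp upstream to 50 bp downstream of the start, were matched to 715 of the 875 genes with a member at a canonical coding start. Among them 79.7% held GGGCGG, against 58.5% of all 15843 protein-coding promoters of the same length and 76.6% of 521 promoters of other genes whose peaks were in both lists. TATAAA was held by 5.73% of member promoters, 11.3% of the promoters with peaks in both lists and 9.63% of all promoters. CCAAT was held by 31.2%, 38.8% and 36.4%, and CCGGAAG by 19.0%, 18.6% and 14.2%, in the same order. Both sets held GGGCGG more often than all promoters did, and no interval was computed for these shares.

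Members were next read by the roles of their genes, in 23 gene lists, and counts are of genes that had a control peak at a start, a gene with peaks of 2 classes being counted in each. The share over all control peaks, 36.3%, and over those at coding starts, 43.1%, is the level against which each count stands. Of 7 genes for subunits of RNA polymerase II with a control peak, 3 were members: POLR2E (fold enrichment 5.91 in the control list and 5.32 under DHX9 knockdown), POLR2D (3.91 and 5.32) and POLR2I (3.49 and 5.70). Of 14 genes for general transcription factors and Mediator, 8 were members, among them GTF2H5 (5.05 and 6.70) and GTF2H3 (4.30 and 3.92), subunits of the factor TFIIH that opens the promoter, and MED22 of Mediator (4.23 and 4.62). Of 10 pausing and elongation factors, 3 were members. These were NELFCD, a subunit of the complex that holds paused polymerase (4.59 and 7.02), CCNT1, the cyclin of the kinase that releases it (3.48 and 7.1), and RTF1 (2.95 and 6.35), an elongation factor. The intervals of these 3 shares include both background levels.

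Lists of splicing and R-loop genes were short. Of 17 SR protein and hnRNP genes, 6 were members and 10 were found in both lists. The share of members, 35.3% (17.3 to 58.7), was near the 36.3% of all control peaks. SRSF3, an SR splicing factor, had 5.97 in the control list and 7.74 under DHX9 knockdown, SRSF9 had 4.30 and 4.86, and HNRNPA2B1 had 4.52 and 5.2. Among 4 genes for factors of the U2 snRNP and the end of the intron, SUGP1 alone was a member, with 3.11 and 4.50, and a U2AF1 knockdown peak lay 0.319 kb from it. Among 4 genes for enzymes that resolve R-loops, RNASEH2C, a subunit of ribonuclease H2, was the single member, with 4.02 and 6.98. Counts of this size say little of the lists.

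Genes of the ribosome and of translation gave more members by count, the cytosolic ribosomal protein list being the longest. Of 55 cytosolic ribosomal protein genes, 22 were members (Wilson interval of the share 28.1 to 53.2%), 17 were found in both lists, 15 in neither and 1 under U2AF1 knockdown alone. Their median control fold enrichment was 4.24, and after RPS4X the most significant were RPL22L1 (7.03 in the control list, 4.62 under DHX9 knockdown) and RPS3 (6.45 and 7.0). The summit of the RPS3 peak also lies within 1000 bp of the start of SNORD15A, a small nucleolar RNA gene. The share is near the background, so ribosomal protein genes as a list did not stand apart. Of 18 translation factor genes, 8 were members, among them EIF4A2, an RNA helicase of initiation (9.68 and 8.22), and EIF3A (4.93 and 6.61). The list took genes by name, so it also holds EIF2AK1, a kinase, and EIF4ENIF1, a transporter. EIF2B1 and GTF2H3 share 1 peak between them. Aminoacyl-tRNA synthetase genes, which charge tRNAs, had 4 members of 6: AARS1 (4.26 and 4.24), AARS2 (4.31 and 7.41), WARS2 (2.91 and 5.16) and GARS1.

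Mitochondrial genes were of like standing. Of 18 mitochondrial ribosomal protein genes, 10 were members, 55.6% (33.7 to 75.4), 2 were found in both lists and 7 in neither. MRPL36 is counted both as a member and in neither, since it has a peak of each kind. The most significant were MRPL34 (5.88 in the control list and 3.99 under DHX9 knockdown), MRPS6 (4.51 and 6.35) and MRPS18C (3.63 and 4.21). The MRPL34 summit lay far upstream of the canonical start (-13218 bp), near another annotated start of the gene. With a control −log10 q of at least 5, the count of members was 4 of 12. Of 17 oxidative phosphorylation genes, 8 were members, among them NDUFB9 (4.15 and 6.67) and NDUFA10 (5.10 and 3.75) of complex I and CYC1 of complex III (4.56 and 7.33). Both intervals include the background.

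Members were few among small nuclear RNA, histone, actin and tubulin genes. Of 42 small nuclear RNA genes, which encode the RNA cores of the spliceosome and of related particles, 40 had peaks in both lists and 1, RNVU1-23, a variant U1 gene, was a member (5.83 and 8.43), 2.38% (0.422 to 12.3). These genes exist in near-identical copies, so reads may be shared among them. Of 38 replication-dependent histone genes, 9 were members and 26 were found in both lists, 23.7% (13.0 to 39.2). By peaks, 7 of 30 were members, and the interval counts genes that share a peak as separate. Beside H2AC18 the most significant were H4C3 (6.74 and 10.3) and 1 peak shared by H2AC17, H3C12 and H2BC17 (6.16 and 3.55). All 6 actin and tubulin genes with a control peak were found in both lists, and 0 were members (0 to 39.0%). The small nuclear RNA interval lies below both background levels, and those of the histones and of actins and tubulins lie below the 43.1% of coding starts but include 36.3%. Both levels cover control peaks of every strength, and several small nuclear RNA peaks were among the strongest, such as RNU1-1 (control fold enrichment 30.9, rank 7). In decile 10 members were 7.64% of control peaks by −log10 q and 16.0% by fold enrichment. The first lies within the small nuclear RNA interval. A comparison at like strength was not made. Small nucleolar RNA genes had 10 members of 32, 31.2% (18.0 to 48.6), among them SNORA57 (8.44 and 5.16), and SNORD15A, which shares the RPS3 peak. These 10 genes rested on 7 member peaks of 28, so here too the interval counts genes that share a peak as separate.

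Chaperone and stress genes held several of the stronger members. Of 19 heat shock chaperone genes, 10 were members, 52.6% (31.7 to 72.7). HSP90AB1, the constitutive HSP90, had its peak at chromosome 6, 44246969 to 44247323, with a fold enrichment of 8.18 in the control list and 3.97 under DHX9 knockdown, and a U2AF1 knockdown peak lay 10.0 kb away. DNAJB1, a cochaperone of HSP70, had 6.79 and 8.20, and HSPA12A had 5.63 and 5.47. The list also holds CCT6P3, a pseudogene. Of 10 immediate early genes, 3 were members: IER5, BTG2, an antiproliferative gene (5.87 and 7.18), and MCL1, an inhibitor of apoptosis (4.35 and 5.88). Of 10 proteasome genes, 4 were members, with PSMA7 (5.50 and 6.01) and PSMA4 (3.5 and 6.89) of the core particle and PSMG2, an assembly chaperone (5.02 and 4.48). The PSMG2 summit lay far upstream of the canonical start (-44768 bp), near another annotated start of the gene.

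Genes of DNA metabolism and of metabolism made up the rest. Of 11 DNA repair genes, 6 were members, among them XRCC3 (6.51 and 7.1) of homologous recombination, ATRIP (6.04 and 6.58) of checkpoint signalling and MSH3 (4.70 and 5.14) of mismatch repair. A U2AF1 knockdown peak lay 0.320 kb from the XRCC3 member. Of 13 DNA replication genes, 5 were members, with POLE, the leading strand polymerase (4.78 and 4.53), MCM4 of the replicative helicase (4.15 and 4.20) and GMNN, an inhibitor of licensing (3.49 and 4.24). C2H2 zinc finger ZNF genes had 20 members of 40, 50.0% (35.2 to 64.8), led by ZNF703 (7.16 and 7.11), ZNF76 (5.13 and 8.54) and ZNF143 (4.53 and 7.51). Of 8 glycolysis genes PFKL was the single member (4.00 and 5.90), and of 7 ubiquitin conjugating enzymes UBE2D3 (2.85 and 4.42). Across the 23 lists, then, the small nuclear RNA genes alone had a share whose interval excludes the 36.3% of all control peaks. That level is not matched for peak strength, and the interval includes the 7.64% of decile 10 of control −log10 q.

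**Figure D5:**
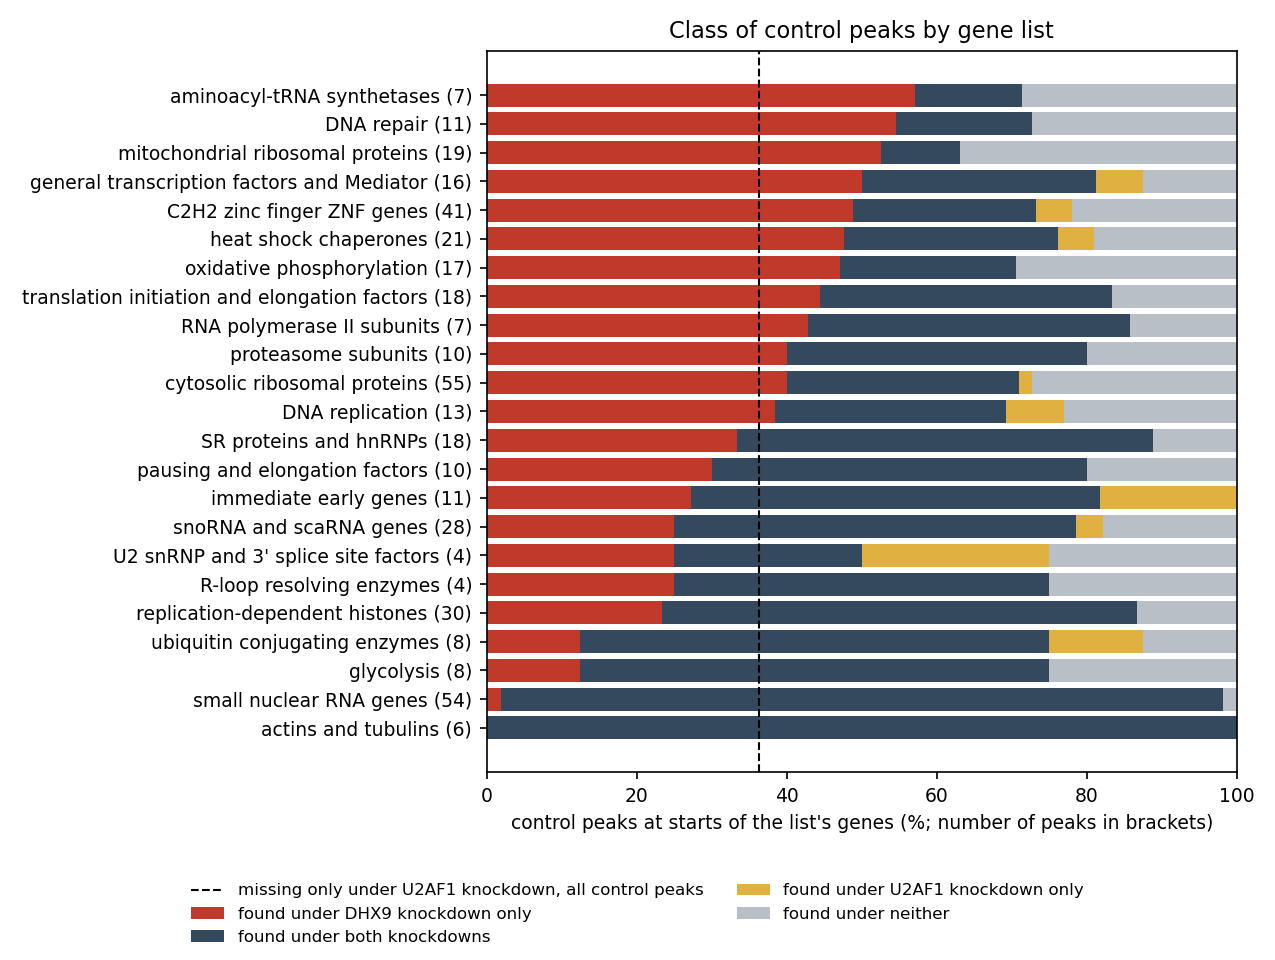
Control peaks at starts of the genes of each list (number of peaks in brackets), as stacked shares (%) of peaks found under DHX9 knockdown only (red), under both knockdowns, under U2AF1 knockdown only and under neither; the dashed line is the 36.3% of all control peaks. Small nuclear RNA genes, with 1 member, and actins and tubulins, with 0, are at the bottom.

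A few members were repeats rather than genes. By the entropy of trinucleotides in the 200 bp around the summit (under 4 bits of a possible 6), 7 members were of low complexity, 0.699%, as were 6 of the 840 peaks found in both lists and 17 of the 802 found in neither. The member on chromosome 11 shown above (11246524 to 11246955) had a fold enrichment of 28.4 in the control list and 6.03 in the DHX9 knockdown list, ranks 10 and 1413. A peak in an intron of SNTG2, a syntrophin gene, at chromosome 2, 1221426 to 1222163, was 37.3% C and 47.3% T, with 17.7 and 7.1. Both stood far higher in the control list than in the DHX9 knockdown list.

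A further 4 of the repeats were arrays of TTAGGG, the repeat of human telomeres, or of its complement. At chromosome 12, 133264951 to 133265299, 58 copies took up 99.7% of the bases, 10.0 kb from the end of the reference record. Fold enrichment there was 6.56 in the control list and 4.84 under DHX9 knockdown. At chromosome 18, 80262904 to 80263261, 58 copies took up 97.2%, 110 kb from the end of the record, with 4.94 and 4.86. These distances count every position of the record, sequenced or not, so they do not place an array inside sequenced chromosome. At chromosome 1, 10010 to 10429, 60 copies lay on the minus strand, with 3.61 and 3.49, and 41 copies lay in a peak on an alternate sequence of chromosome 12. The first 2 were the most significant by joint rank, with −log10 q of 172 and 113 in the control list at modest fold enrichment. Reads from such repeats can be placed at many loci, and how the authors handled them is not given in the sources used here. The part of such placement in these peaks was not tested.

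Members were found on every chromosome but Y. Their share of control peaks was highest on chromosome 3, 51.7% (43.7 to 59.7, 75 of 145), and on chromosome 7, 47.7% (39.3 to 56.2). It was lowest on chromosome 21, 15.2% (8.44 to 25.7, 10 of 66), and on chromosome 17, 25.9% (20.2 to 32.6), and on Y it was 0 of 7. On the remaining chromosomes the share lay between these, and most intervals included 36.3%.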

How the data were processed

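POLR2A was profiled by ChIP-seq in HEK293T cells in 3 conditions, with 9 samples. Per the submitters' processing notes, Bowtie2 2.4.5, deepTools 3.5.1, MACS2 2.2.7.1 and the build hg38 were used, and their roles and settings are not given in the sources used here. The values of the deposited peak lists are the authors' own: a score, a fold enrichment (a ratio to background), a −log10 p-value and a −log10 q-value per peak, 1 list per condition. Whether replicates were pooled is not stated. Every sequence name and peak end fitted the GRCh38 reference.

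Members were found by overlap of at least 1 bp, checked against bedtools 2.31.1. The overlapping DHX9 knockdown peak of highest −log10 q gave the DHX9 values. Summits were placed against GENCODE version 44, within 1000 bp of a start; the canonical transcript gave distances. Sequence was read from GRCh38, and coordinates count from 1. Shares have 95% Wilson intervals and differences 95% Newcombe intervals (checked on simulated data), for counting error only. No p-value was computed, since each condition is 1 list. Named members were the 12 highest by the lower of their 2 percentile ranks of −log10 q, the 5 highest by control fold enrichment, the 5 highest by DHX9 knockdown −log10 q, up to 3 per gene list, and 2 on each side of each overlap threshold. Promoter sequence was shown for some of those of the 12 at a protein-coding start, and TTI2 was not among them. Some members that this rule names are not reported here. The members and the gene lists were chosen with earlier results of these data known. The alternatives tried were other significance limits, list sizes, overlap rules, windows and chromosome sets.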

Additional observations from a re-analysis of the deposited data

How the results depend on the processing

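The number of members was 557 when control and DHX9 knockdown peaks needed a −log10 q of at least 5 against all U2AF1 knockdown peaks, and 346 with every list reduced to its top 1730 peaks. All 557 and all 346 were among the 1001. This follows from the settings, which remove control and DHX9 knockdown peaks and leave the U2AF1 knockdown list whole. They were 28.3% and 20.0% of the control peaks kept, against 36.3% of the full list. Under the other 6 settings it lay between 675 and 991. The share of members at a start was 96.1% with a window of 500 bp and 93.5% for protein-coding starts. Against peaks found in both lists, control fold deciles 3 to 8 turned the difference in protein-coding starts to -0.411 points, outside genes to 0.0299, CpG-rich sequence to -1.60 and the GC box to -2.22, and brought single-exon transcripts to -1.44 and the TATA motif to -1.68, with intervals that include 0. The GC box difference of 4.89 (0.384 to 9.38) over all peaks was 4.85 at a −log10 q of at least 5 and 2.02 without small nuclear RNA, small nucleolar RNA and histone gene peaks, where single-exon transcripts gave -1.44; these intervals include 0 too. Against peaks found in neither list, a 400 bp window turned CTCGCGAG to -0.195. Of the feature differences under other settings, 123 kept their sign and whether their interval excludes 0, and 16 changed sign with intervals that include 0 before and after. A further 17 lost and 5 gained an interval that excludes 0, and the 5 that had excluded 0 and changed sign are given above. Among counts of members in gene lists, 39 stayed within 1.5 times and 7 moved. With starts within 500 bp, small nucleolar RNA genes gave 5 of 16. At a control −log10 q of at least 5, mitochondrial ribosomal protein genes gave 4 of 12, general transcription factors and Mediator 5 of 10, pausing factors 1 of 5, tRNA synthetases 2 of 2, ubiquitin conjugating enzymes 0 of 5 and U2 snRNP factors 0 of 2. No paired analysis was possible because both replicates of a condition share 1 list, and for the same reason no replicate could be left out. Depth is unknown, so weak peaks absent from the short U2AF1 knockdown list may be undetected rather than absent.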
